A study of Mus musculus with 2 samples.

Results

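Inflammasomes are protein platforms that assemble inside a cell after a sensor has met a microbial product or a sign of damage. Sensors of the NLRP, NLRC4-NAIP and AIM2 families act, most of them through the adaptor ASC (the product of Pycard), on caspase-1, which processes pro-IL-1β and pro-IL-18 and cleaves gasdermin D. Caspase-4, the mouse protein also called caspase-11, binds bacterial lipopolysaccharide and cleaves gasdermin D as well, and the released fragment of gasdermin D forms pores in the plasma membrane.

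The genes described here are 10 inflammasome sensors and effectors, namely the sensors Nlrp1b, Nlrp3, Nlrc4, Naip2, Naip5 and Aim2, the adaptor Pycard, the caspases Casp1 and Casp4, and Gsdmd. They were taken by name from 36870 gene names on an Agilent mouse expression array, where they have 16 of 56605 probes. The values were measured in epithelial cells that had been collected with magnetic beads against EpCAM (CD326), a surface protein of epithelia, from the submandibular salivary glands of female C57BL/6 mice. RNA from a young sample (9 weeks) and an aged sample (24 months) was labelled with the dye Cy3, and each was hybridized to 1 array. The labels name no transgene or treatment. The study obtained its young and its aged mice from different sources, so source and age cannot be told apart. Since each age is a single array (n = 1), the values carry no spread between mice, and no comparison of the ages was tested.

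At 9 weeks 55.4% and at 24 months 50.8% of the 59305 non-control spots were well above background by the mark of the scanner software, and the lowest such signal was 14.1 and 14.3. The label of the cells was checked on 10 epithelial markers. All 10 were measured, 9 of them on both arrays, with differences between -0.55 and 0.54 on the log2 scale, and Krt19, a duct keratin, at 9 weeks only. Macrophage and dendritic cell transcripts were present as well and differed between the arrays. All 12 markers of these cells were well above background on both arrays, all 12 were lower on the aged array (11 to 12 over 7 ways of scaling the arrays), 9 of them by at least 2-fold, and the median difference was -1.29. On the log2 scale relative to the 75th percentile, their summed level was 7.60 at 9 weeks and 6.67 at 24 months, with single genes from -1.68 to 6.54 and from -2.70 to 5.64, and none was at background. One of them, Itgam, stood on a probe that shares 20-base runs with the promoters of 78 other genes, and without such probes the median was -1.36. The level of Itgam was 5.69 at 9 weeks and 5.64 at 24 months, the highest of the 12 at 24 months. It is part of the summed level, which was not computed without it. The inflammasome genes are active in macrophages too, and the part of these cells in the values below was not tested. In cells collected in bulk, fewer cells of a type and less RNA per cell cannot be told apart.

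Several probe sequences bear on how far the values can be read, and they are shown first, from 5′ to 3′, with positions on NCBI37 (mm9) as the files give them. No gene model of that build was used here, so exon, intron or UTR is not stated. The sensor Naip5 has 2 probes that lie 33754 bases apart on the minus strand of chromosome 13. The last 30 of the 60 bases of probe A_55_P2014706 at chr13:100981843-100981902 are printed first, with capitals for bases that lie in 20-base windows found in the promoters of at least 5 other genes. The whole of probe A_66_P119315 at chr13:101015657-101015716 follows, because the files match it to transcripts of 4 Naip genes.
Naip5 A_55_P2014706, bases 31 to 60: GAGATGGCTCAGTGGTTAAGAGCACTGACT
Naip5 A_66_P119315: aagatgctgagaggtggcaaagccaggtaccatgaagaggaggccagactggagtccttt

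Nlrp1b has 3 probes on the minus strand of chromosome 11 that are separated by 7903 to 63705 bases. Their first 30 bases are given to show that they are different sequences, since a single one of them gave a signal well above background. All 3 are listed for a shared transcript. Probe A_66_P106290 lies at chr11:71030377-71030436, A_55_P2482865 at chr11:70974575-70974634 and A_55_P2096797 at chr11:70966612-70966671.
Nlrp1b A_66_P106290: ctgttgtcacgtgaggagtcttcgggtgaa
Nlrp1b A_55_P2482865: agacaatcttttcattggctcccgctacat
Nlrp1b A_55_P2096797: atgaatgggtctcagtgaaaaggatgggct

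Naip2 has 1 probe, A_55_P1984243 at chr13:100914212-100914271 on the minus strand. Its first 30 bases are shown because Naip2 had the largest difference among the inflammasome genes measured on both arrays.
Naip2 A_55_P1984243: ttctagtacatttcactctagacaggcatg

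Of the 16 probes, 10 were well above background at 1 age or both. By gene, 6 were measured on both arrays (Naip2, Naip5, Pycard, Casp1, Casp4 and Gsdmd), Nlrp1b on the aged array only, and Nlrp3, Nlrc4 and Aim2 on neither. All signals below are processed intensities with the error that the scanner software gives to the spot, which covers the measurement on that array and not the spread between mice. Levels are log2 of the signal relative to the array's 75th percentile (256 at 9 weeks and 198 at 24 months), and differences are aged minus young on that scale.

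**Figure D1:**
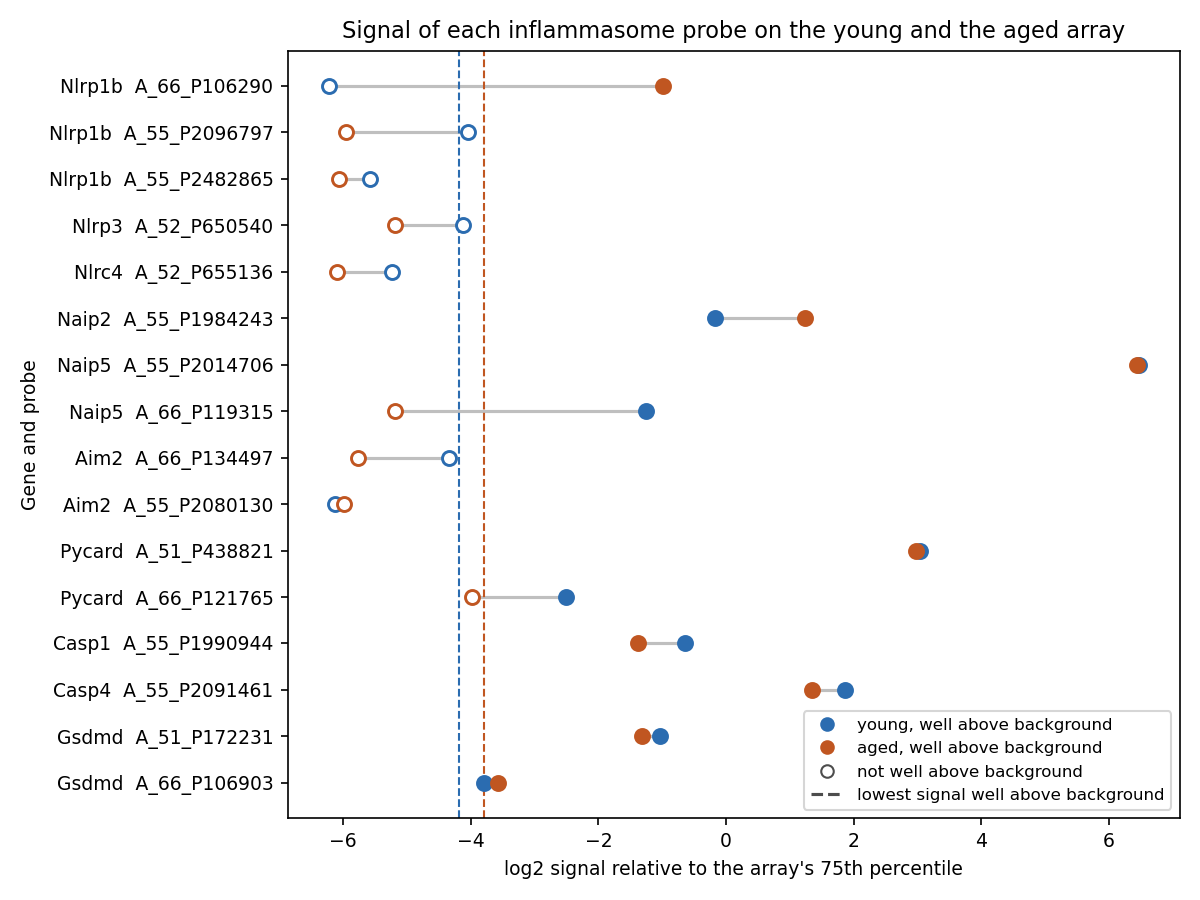
Level of each of the 16 probes on the young (blue) and the aged (orange) array, as log2 signal relative to the array's 75th percentile. Filled points were well above background and open points were not, and the dashed lines mark the lowest level well above background, -4.19 at 9 weeks and -3.79 at 24 months. Levels of different probes cannot be set against each other, since each probe binds its target with its own efficiency.

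Among the sensors, by the brightest probe of each gene, Naip2 and Nlrp1b were past 2-fold, both higher on the aged array. Naip5 was past 2-fold in the other direction by its dimmer probe, described below. NAIP2 recognizes a rod protein of bacterial type III secretion systems and hands the signal to NLRC4. The Naip2 signal was 227 ± 23.0 at 9 weeks and 468 ± 46.9 at 24 months. Its level was -0.17 and 1.24, a difference of 1.41 ± 0.21 (2.66-fold higher). Of the 18693 genes measured on both arrays, 99.4% had a difference at or below that of Naip2. The pixel SD of its spot was 22.6% of the mean at 9 weeks and 17.2% at 24 months, shares that 81.7% and 57.2% of spots of like brightness did not exceed.

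NLRP1B is a sensor of proteases such as anthrax lethal factor. The signal of Nlrp1b probe A_66_P106290 was 3.42 on the young array, a substitute value that the software wrote where it measured no signal, and 99.5 ± 11.99 on the aged array. The level on the aged array was -0.99, and against the young array's lowest signal well above background this was at least 9.15-fold higher (at least 3.19 on the log2 scale). The raw mean intensity of the spot, before subtraction of a background near 43 and 44, was 38.7 and 132. The young spot was thus at background and the aged spot above it.

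The other probes of Nlrp1b gave no signal well above background at either age. A_55_P2096797 had 15.5 ± 3.53 on the young array and a substitute of 3.20 on the aged array, and A_55_P2482865 had 5.38 ± 2.997 and a substitute of 2.96. No direction or fold can be read from either of them. Probe A_66_P106290 is listed for transcript NM_001040696 only, whereas A_55_P2096797 and A_55_P2482865 are listed for NM_001040696 and NM_001162414. The higher value of Nlrp1b on the aged array therefore rests on 1 of 3 probes and on 1 spot.

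That spot was also uneven. Its pixel SD was 51.3% of its mean, a share that 99.8% of 3318 spots with a mean within 20% of it on the same array did not exceed, and its mean was 1.19 times its median. With the median pixel in place of the mean, the signal on the aged array was 77.6 and the limit at least 7.11-fold. The software did not mark the spot as an outlier.

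Naip5 encodes a sensor of bacterial flagellin, and the differences of its 2 probes were at least 2.50 apart on the log2 scale. The brighter probe, A_55_P2014706, had 22764 ± 2276 at 9 weeks and 17191 ± 1719 at 24 months, a difference of -0.03 ± 0.20. The other probe, A_66_P119315, had 107 ± 11.2 at 9 weeks and 5.45 ± 3.39 at 24 months, where it was not well above background, and was at least 5.80-fold lower. The brighter probe thus had nearly the same scaled level at both ages, while the other was measured at 9 weeks only. Of the 6458 genes with several probes measured or given a limit, 9.69% had probes at least 1 apart on the log2 scale.

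The sequence of the brighter Naip5 probe is not particular to Naip5. Cut into 41 windows of 20 bases, it had 19 windows that were present, letter for letter and on either strand, in the promoters of other genes (a stretch around the start of each gene, RefSeq on GRCm38.p6). In all, 37 other genes held such a window, 0.137% of the 27025 genes with a promoter in the table, and 1 window alone was found in 17 genes. The windows shared by at least 5 genes cover bases 24 to 60, the part printed above in capitals included. No other of the 16 inflammasome probes shared a window with the promoter of another gene, against 2.59% of all probes on the array, and 283 probes (0.5%) shared windows with at least 10 genes. Whether the signal of this probe comes from Naip5 RNA was not tested.

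**Figure D2:**
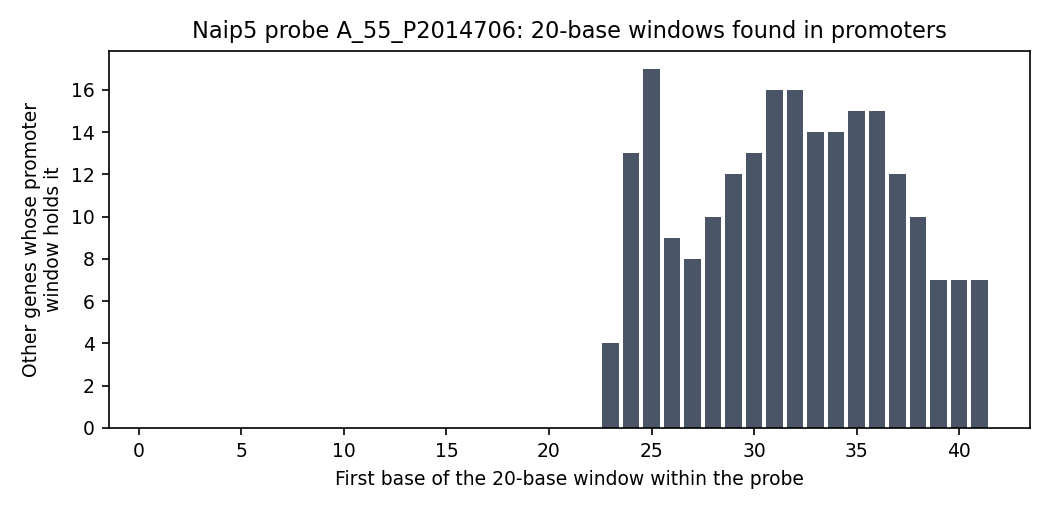
For each 20-base window of the brighter Naip5 probe, by its first base within the probe, the number of other genes whose promoter holds the same 20 bases. The first 22 windows were found in none, and the 19 windows after them in 4 to 17 genes each.

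The dimmer Naip5 probe is listed in the files for transcripts of Naip1, Naip5, Naip6 and Naip7, so its signal cannot be assigned to 1 of them. Its young spot was uneven, with a pixel SD of 46.5% of the mean that 99.2% of 3592 spots of like brightness did not exceed. With the median pixel in place of the mean, its limit was at least 4.44-fold lower. The array also has probes for the other Naip genes. Naip6 had a signal of 16.9 at 9 weeks and 5.89 at 24 months, and Naip7 had 19.3 and 3.54, both well above background at 9 weeks only and too close to it for a useful limit, while Naip1 was not well above background at either age. These values do not separate Naip5 from its paralogs.

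For the sensors Nlrp3, Nlrc4 and Aim2 the arrays gave no level well above background. NLRP3 responds to ion fluxes and damaged membranes, NLRC4 is the partner of the NAIP proteins, and AIM2 binds DNA in the cytosol. Nlrp3 had 14.6 ± 3.68 at 9 weeks and 5.42 ± 3.46 at 24 months. Nlrc4 had 6.78 ± 2.99 and a substitute of 2.91. The probes of Aim2 had 12.6 ± 3.87 and 3.66 ± 3.14 on the young array and substitutes of 3.63 and 3.13 on the aged array. A change of these genes was not detectable at this signal over background, and absence of the transcripts cannot be read from it. In particular, the higher Naip2 signal on the aged array stood beside a partner gene, Nlrc4, with no measured level at either age.

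The adaptor gene Pycard had nearly the same level at both ages. Probe A_51_P438821 at chr7:135136241-135136300 gave 2099 ± 210 at 9 weeks and 1553 ± 155 at 24 months, levels of 3.03 and 2.97 and a difference of -0.06 ± 0.20. A second probe under the name Pycard, A_66_P121765, had 45.2 ± 5.74 at 9 weeks and 12.5 ± 3.77 at 24 months, where it was not well above background, and was at least 2.45-fold lower. It lies at chr7:135140025-135140084 on the opposite strand, 3724 bases from the first probe, and is listed for a cDNA clone (AK050905) of unknown product. The length of Pycard on GRCm38.p6 is 2495 bases. That probe is therefore given under its array name, and the level of Pycard is that of the first probe.

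Both caspase genes were lower on the aged array by less than 2-fold. Casp1, which encodes the protease of the canonical inflammasome, had 164 ± 16.8 at 9 weeks and 75.7 ± 8.43 at 24 months. Its level was -0.64 and -1.39, a difference of -0.75 ± 0.22 (1.68-fold lower), and 4.93% of the genes measured on both arrays had a difference as low. Casp4, the gene of the lipopolysaccharide receptor caspase, had 937 ± 93.7 and 506 ± 50.7, levels of 1.87 and 1.35. The difference was -0.52 ± 0.20 (1.43-fold lower), and -0.41 with the median pixel in place of the mean, with an uneven young spot (pixel SD 25.5% of the mean, not exceeded by 99.5% of 1647 spots of like brightness). For both caspases the difference was larger than its error, which covers the arrays and not the mice.

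Gsdmd, the gene of the pore-forming gasdermin D, was lower on the aged array by its brighter probe, by less than 2-fold. Probe A_51_P172231 had 126 ± 12.9 at 9 weeks and 79.8 ± 8.50 at 24 months, a difference of -0.28 ± 0.21 (1.22-fold lower). The difference was slightly larger than its error, which covers the arrays and not the mice. Of the genes measured on both arrays, 17.6% had a difference as low. Probe A_66_P106903, near the limit of measurement on both arrays, had 18.5 ± 3.398 and 16.7 ± 3.31, a difference of 0.22 ± 0.39. The probes had opposite signs and were 0.51 apart, within the sum of their errors.

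**Figure D3:**
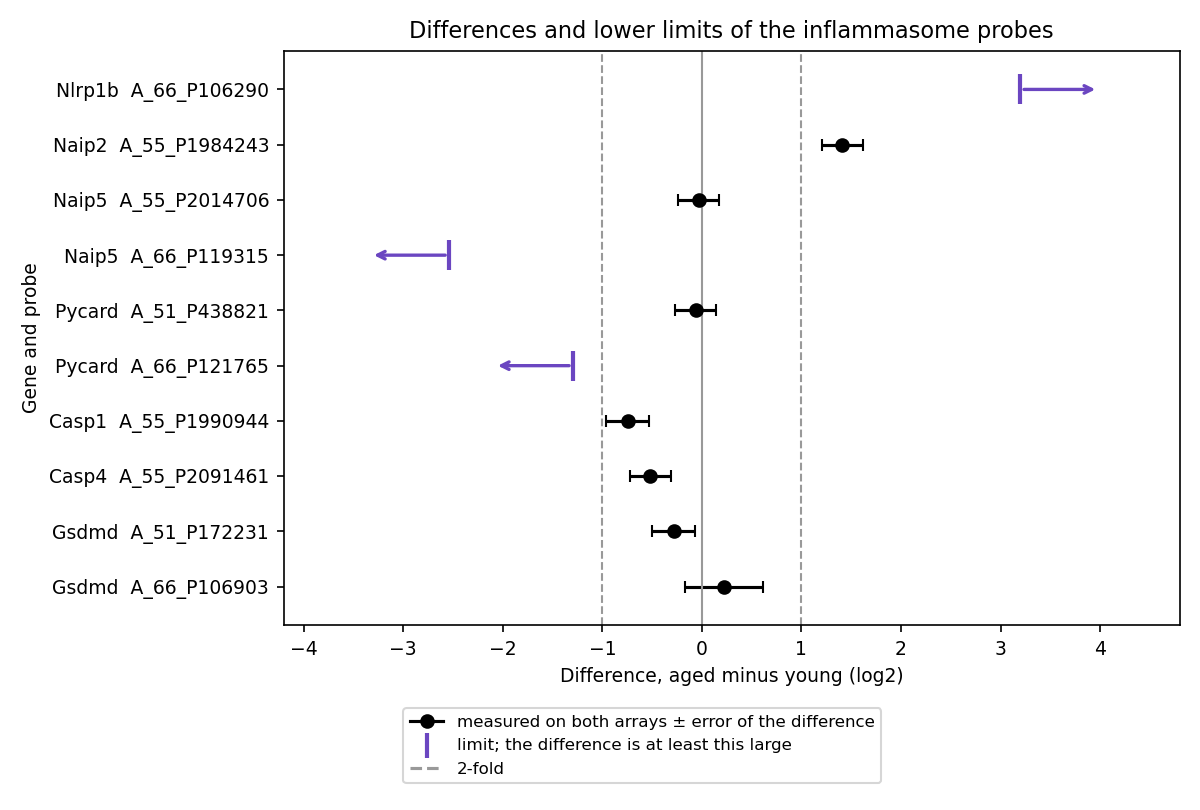
Difference, aged minus young on the log2 scale, of the 10 probes well above background at 1 age or both. Points with bars are probes measured on both arrays with the error of the difference from the scanner software, arrows start at the limit where 1 array gave no level, and dashed lines mark 2-fold. Naip2 and the limit of Nlrp1b lie above 1, the limits of the second Naip5 and Pycard probes lie below -1, and all other points lie between the dashed lines.

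Counted by the brightest probe, 2 inflammasome genes reached 2-fold upwards, Naip2 as measured and Nlrp1b by its limit, and 0 downwards. Counted by any kept probe under the gene's name, Naip5 and Pycard reached 2-fold downwards (2 genes), beside 6.37% of all kept genes. Among the 21284 genes kept on these arrays, 2.53% reached 2-fold upwards and 5.14% downwards by the same rule, and 9.89% were measured at 9 weeks only. Of genes measured on both arrays, 1.51% were at least 2-fold higher, which is 283 genes against 568 at least 2-fold lower. That split moved with the scaling, to 462 and 415 with arrays centred on the median and to 150 and 928 with arrays set level on the spike-in controls, which shifted the median of all genes by 0.17 and -0.26. Like Nlrp1b, 2.28% of kept genes were well above background at 24 months only. The median difference of the 6 inflammasome genes measured on both arrays was -0.17, and 5 of the 6 had a difference below 0. One of the 6 is Naip5 by its brighter probe, whose sequence is not particular to it. With such repeat-like probes left out, the median was -0.28 over 5 genes. Over all genes the median was 0.09 and the share below 0 was 40.1%. Over the 7 scalings 3 to 5 of the 6 were below 0, while the median of all genes lay between -0.16 and 0.27.

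The order of the differences held in part when the arrays were set level in other ways. Over 7 scalings (the 75th percentile over all or over bright probes, the median, quantile normalization, loess, spike-in controls, and normexp, a model-based background correction), Naip2 lay between 1.12 and 1.59 and was past 2-fold in all 7, and the limit of Nlrp1b was at least 2.68-fold under each of the 7. Casp1 lay between -1.004 and -0.36, Casp4 between -0.77 and -0.34 and Gsdmd between -0.54 and -0.11, lower on the aged array in all 7. Casp1 reached 2-fold with the spike-in controls only. Pycard (-0.33 to 0.11), the brighter Naip5 probe (-0.64 to 0.14) and the dimmer Gsdmd probe (-0.03 to 0.41) took both signs. The limits of the dimmer Naip5 probe and of the second probe named Pycard were past 2-fold in 6 of 7, and under 2-fold (1.93-fold for Naip5) with the normexp background correction.

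**Figure D4:**
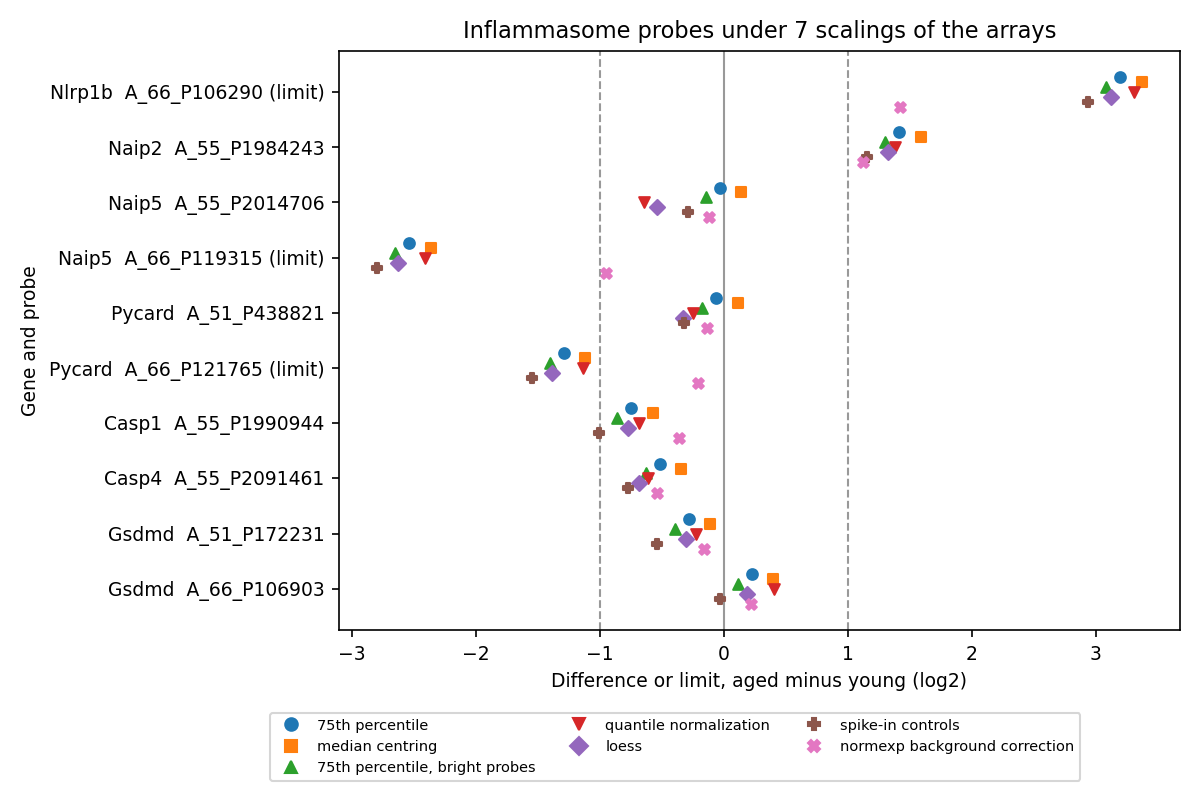
Difference or limit, aged minus young on the log2 scale, of the same 10 probes under 7 scalings of the arrays, 1 symbol per scaling, with dashed lines at 2-fold. Naip2 and Nlrp1b lie above 1 under each scaling, Casp1, Casp4 and the first Gsdmd probe lie below 0 under each, and Pycard, the brighter Naip5 probe and the second Gsdmd probe lie on both sides of 0.

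The cytokines that caspase-1 processes were lower on the aged array. Il1b, which encodes pro-IL-1β, had a signal of 839 at 9 weeks and 295 at 24 months, a difference of -1.13, and a second probe gave -1.08. Over the 7 scalings the first probe lay between -1.39 and -0.96 and was past 2-fold in 6, and the second in 4. Il18 had 59.5 and 24.3, a difference of -0.92, between -1.18 and -0.28 over the scalings and past 2-fold in 2 of them. Il1a had 15.4 at 9 weeks and a value not well above background at 24 months, with no fold to be given. The largest difference in this group was that of Il1rn, the gene of the IL-1 receptor antagonist, at -2.49 (5.64-fold lower), and at -1.02 (2.02-fold) with the normexp correction. Of 12 cytokine and receptor genes, 11 were kept and 9 measured on both arrays, 2 of these were at least 2-fold lower (3.04% of all genes measured on both) and 0 at least 2-fold higher, with a median of -0.58. Il1b and Il1rn are expressed by macrophages too, whose markers had a median of -1.29, and the part of these cells was not tested.

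Among 12 further sensors, 7 were kept and 4 measured on both arrays, and 1 of these was past 2-fold, Ifi204, an interferon-induced DNA-binding protein, at -1.70, with a second probe at -1.66. Nlrp1a, the paralog next to Nlrp1b, had 3843 at 9 weeks and 2938 at 24 months by its brightest probe, a difference of -0.02. That probe shares 20-base runs with the promoters of 4 other genes. The other Nlrp1a probes, A_55_P2023146 and A_55_P2070366, were not well above background at either age. Whether the bright signal comes from Nlrp1a RNA was not tested. Zbp1, a sensor of Z-form nucleic acid, had 0.20 by its brightest probe, and its second probe, well above background at 9 weeks only, was at least 1.73-fold lower. Mefv, the gene of pyrin, was well above background at 9 weeks only and at least 1.99-fold lower, a limit of 1.03-fold with the normexp correction and past 2-fold in 3 of the 7 scalings. The 8 NLR genes outside the inflammasome had 6 members measured on both arrays with a median of -0.17. By the brightest probe 1 was past 2-fold, Ciita, the regulator of MHC class II genes, at -2.49 (5.63-fold lower). Ciita was at -1.43 with the normexp correction. A second probe of Nlrc3, well above background at 9 weeks only, was at least 2.41-fold lower, while its brightest probe had a difference of 0.31. That limit was 1.14-fold with the normexp correction and past 2-fold in 6 of the 7 scalings. Of these 20 further sensor and NLR genes, 13 were kept, and 0 of the 13 reached 2-fold upwards by the brightest probe, beside 2.53% of all kept genes. A second probe of Nlrp9c, well above background at 24 months only, was at least 1.80-fold higher, a limit past 2-fold in 2 of the 7 scalings, while its brightest probe had a difference of -0.05.

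All 20 regulators of inflammasome activity were measured on both arrays. Their median was -0.24, and 15 of the 20 had a difference below 0 (11 to 17 over the 7 scalings), beside 40.1% of all genes measured on both. By the brightest probe 1 was past 2-fold (3.04% of all genes were at least 2-fold lower), namely Ripk3, a kinase of necroptosis, at -1.39 (2.62-fold lower), though with the normexp correction at -0.35. The NLRP3 partner Nek7 had -0.10, and P2rx7, the ATP-gated channel upstream of NLRP3, had -0.71 by its brightest probe and -0.02 and 0.51 by its other probes. Dpp8 and Dpp9, proteases that restrain NLRP1, had 0.18 and 0.33. Among guanylate-binding proteins that act on bacterial membranes ahead of caspase-4, Gbp2, Gbp3, Gbp5 and Gbp7 lay between -0.56 and -0.27.

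Of 10 gasdermin and membrane rupture genes on the array, 5 were kept and 3 measured on both arrays, with none past 2-fold and a median of 0.29. Ninj1, which ruptures the membrane after gasdermin pores have formed, had 4708 at 9 weeks and 4749 at 24 months, a difference of 0.38. Dfna5, the older name of gasdermin E, was not well above background at either age.

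**Figure D5:**
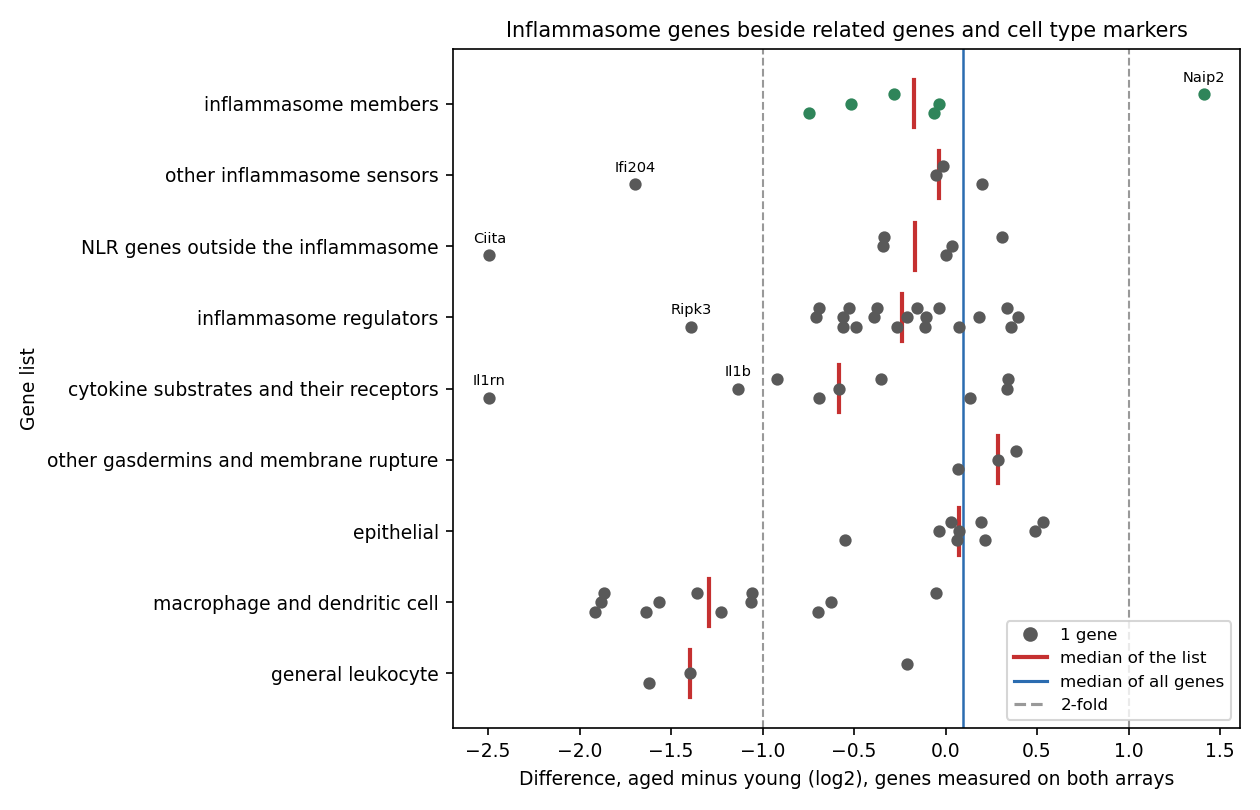
Difference, aged minus young on the log2 scale, of genes measured on both arrays, 1 point per gene by its brightest probe, for the inflammasome genes (green), related gene lists and markers of cell types. Red bars are the medians of the lists, the blue line is the median of all genes (0.09) and dashed lines mark 2-fold. Naip2 is the only named point above 1, and the markers of macrophages and dendritic cells lie lowest as a group together with general leukocyte markers.

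Markers of other blood cells did not move one way. Of 4 general leukocyte markers, 2 were at least 2-fold lower as measured and 1 by its limit, and their summed level was 3.53 at 9 weeks and 2.79 at 24 months. Of 8 neutrophil markers, S100a8, S100a9 and Ngp were well above background at 24 months only and at least 3.98-fold, 14.04-fold and 2.30-fold higher. These limits were 1.84-fold, 3.48-fold and 1.45-fold with the normexp correction, and over the 7 scalings they were past 2-fold in 6, 7 and 5. Camp was well above background at 9 weeks only and at least 1.21-fold lower, Ly6g differed by -0.18, and Cxcr2, Mpo and Retnlg were not well above background at either age. The summed level of the 5 kept neutrophil markers was -1.24 and 0.51. Of 7 T cell markers, 4 were measured on both arrays with a median of 0.31, and Cd5 and Cd8a were not well above background. Cd3g was well above background at 9 weeks only and at least 2.06-fold lower. That limit was 1.10-fold with the normexp correction and past 2-fold in 4 of the 7 scalings. The part of these cells in the values of Naip2, Nlrp1b and the other inflammasome genes was not tested.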

How the data were processed

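The authors hybridized Cy3-labelled RNA to Agilent 8 x 60K mouse arrays and deposited the scanner output of Agilent Feature Extraction 12.0.3.1 (version from the submitters' processing notes), in which each spot has a processed intensity with background subtracted and spatial trends removed, its error, pixel statistics and a mark for well above background. From the deposited intensities, log2 of the processed signal minus log2 of the 75th percentile over non-control spots was taken, the scaling named in the methods of the study. Spots marked as outliers (90 young, 93 aged, none of an inflammasome gene) were left out, and the software marked 0 spots as saturated. Repeated spots were averaged by probe, a probe with the mark for well above background at either age was kept, and the brightest of them represented the gene. All 16 inflammasome probes are reported. A 2-fold difference was the threshold, as in the methods of the study. Where 1 array gave no level, a limit of the fold was computed, with the dim side at that array's detection floor (the lowest signal with the mark) or at the probe's own value if this was higher. The error of a difference combines the software's errors of both spots. The inflammasome genes and the gene lists were chosen with earlier results of these data known, and the named genes are all inflammasome genes, all genes past 2-fold in the pathway lists and, chosen after their values were seen, examples by role. Some genes of the lists are not reported here. The authors' processed table, which holds the same intensities divided by a constant per array, served as an alternative. Promoter sequences and gene lengths came from RefSeq tables on GRCm38.p6, and no coordinate was converted. Alternatives were other scalings, filters and probe rules. R 4.3.3 with limma 3.58.1, Python 3.11.15, numpy 2.4.6, pandas 2.3.3 and matplotlib 3.10.9 were used. The steps were tested on simulated arrays, where 179 of 179 changed genes measured on both arrays were called in the true direction. All planted differences were larger than the 2-fold threshold, so this checked the code only. It does not show how well smaller differences are told, and the simulated arrays had no spread between mice.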

Additional observations from a re-analysis of the deposited data

How the results depend on the processing

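The count of inflammasome genes at least 2-fold higher was 2 under every alternative except that of keeping only probes well above background on both arrays, which leaves Naip2 (1 gene). The count at least 2-fold lower, 0 by the reported rule, was 1 with the arrays set level on the spike-in controls (Casp1) and 1 with repeat-like probes left out (Naip5). It was 2 when detection followed the software's weaker mark of a positive and significant signal (Aim2 and Nlrp3), 2 with no filter on dim probes (the same genes), and 2 when any kept probe was counted (Naip5 and Pycard). The median difference of the inflammasome genes measured on both arrays, -0.17, was -0.43 with quantile normalization, with loess and with spike-in controls, -0.40 with no filter, and 0.002 with median centring. The cause of these shifts was not tested beyond the construction of each alternative. Among single probes, only the first Pycard probe, the brighter Naip5 probe and the second Gsdmd probe turned sign, under median centring (0.11 and 0.14) and the spike-in controls (-0.03), each within the error of its difference. Leaving out repeat-like probes and using the median pixel were chosen after seeing the data. No paired analysis was possible because each age has 1 array and the labels carry no replicate numbers, and for the same reason no replicate could be left out. Precision is limited by signal over background, which left 6 of the 16 probes with no level at either age.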
